A study of Mus musculus with 12 samples.

Results

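Lesions of the spinal cord from mice treated with tamoxifen (SCI Tam, 4 libraries) were set against lesions from mice that received vehicle (SCI Veh, 4 libraries), which makes 8 of the 12 bulk RNA-seq libraries of the series. The libraries were chosen by their titles alone. All mice, including the 4 that gave uninjured cord, were adult (over 8 weeks), of the C57bl/6J background, and carried the same 3 elements, Glast-CreERT2, R26R-YFP and Rasless. SCI Tam mice had 2 mg of tamoxifen injected into the peritoneum each day for 5 days, and SCI Veh mice had as many injections of the ethanol and corn oil solvent. After 7 clearing days the dorsal side of the high thoracic cord was cut, and the injury site was dissected 14 days later. By the series' own description, pericyte-derived scarring is dense in the SCI Veh lesions and attenuated in the SCI Tam lesions, and lower scar genes are therefore no independent finding. Uninjured cord is used below for the spread between libraries and as a reference level.

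Glast-CreERT2 is a Cre recombinase, active only once tamoxifen reaches the cell, that is driven by the promoter of the glutamate transporter Glast (gene Slc1a3). In the adult cord it is used to reach type A pericytes, a subset of the cells that wrap capillaries, leave the vessel wall after injury and give rise to the stromal cells of the fibrotic scar. The Glast promoter is also used by astrocytes, so recombination in other cells cannot be told apart from that in pericytes in bulk RNA. R26R-YFP marks recombined cells, and Rasless cells lose the Ras proteins, small GTPases that carry signals from growth factor receptors to the ERK kinases and that dividing cells need. Solvent-treated mice carry the alleles without recombination, so an effect of tamoxifen itself, a ligand of the oestrogen receptor, and an effect of recombination cannot be told apart either.

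Fibrotic scar is built by stromal cells that secrete fibrillar collagens, the type VI collagen network, fibronectin and matricellular proteins, and that process and crosslink them outside the cell. Basement membranes of type IV collagen, laminins and nidogens lie around vessels and at the border between scar and glia. Around this core lie reactive astrocytes, phagocytes, spared neurons and oligodendrocytes, whose myelin needs cholesterol made in the cord itself.

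Totals ran from 7967970 to 12581324 counts per library. All 4 SCI Tam mice were female by their Xist and Y-linked counts, and 3 of the 4 SCI Veh mice were male (the female is library 429). The sample names of libraries 513, 549 and 564 are 106 to 108, while SCI Tam library 452 is 15 and the SCI Veh libraries are 17 to 20; what the numbers stand for is not given in the sources used here, and the 3 libraries of the high numbers are all SCI Tam. Skeletal muscle markers, 17 genes in all, summed to between 152 and 175 normalised counts-per-million (CPM) in SCI Tam and to between 158 and 1057 in SCI Veh, where library 428 (158 CPM) lay within the SCI Tam range and libraries 402, 429 and 457 (475 to 1057 CPM) lay above it. Uninjured cord ran from 166 to 1410 CPM for the same genes. The mean of log2(CPM + 0.1) over these 17 genes was -0.70 to 1.17 in SCI Tam. It was 4.56, 0.48, 4.09 and 5.61 in libraries 402, 428, 429 and 457, and -0.55 to 5.34 in uninjured cord. The sums are weighted to the most abundant members and so understate the difference between the groups for most of the 17. Sex, the sample name series and muscle transcripts therefore differ between the groups, and each was also entered as a term in the model. The lists of genes used below, 47 in all, name 889 genes, of which 823 passed the filter on low counts and were tested.

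Of 16473 genes tested with edgeR's quasi-likelihood test, 1361 were lower (8.26%) and 1184 higher (7.19%) in SCI Tam than in SCI Veh lesions at an adjusted p under 0.05 with the same sign in the authors' FPKM values, and these are the genes called changed below. The median log2 change over all genes tested was 0.00. Counts alone called 1372 lower and 1283 higher, so the FPKM rule removed 11 falls and 99 rises. The rule also refused genes without a usable FPKM value, 83 of those tested, so some removals may be missing values and not a difference in sign. A change of at least 2-fold was reached by 372 of the falls (2.26% of genes tested) and 192 of the rises (1.17%). The 4 SCI Tam libraries lay apart from the 4 SCI Veh libraries for 1016 of the falls and 795 of the rises, where 8.77% and 7.68% of all genes tested lay apart in those directions. With fewer cells of a type or less RNA per cell, a bulk library gives the same lower count, and the 2 cannot be told apart here.

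The falls had a median log2 change of -0.58 in counts and -0.55 in FPKM. Among the rises, 234 were genes whose counts stepped against FPKM in libraries 513, 549 and 564, and these had a median log2 change of 1.59 in counts but 0.22 in FPKM. The other 950 rises had 0.33 in counts and 0.31 in FPKM, and 29 of them reached 2-fold. Of 2 examples chosen after their values were seen, Hspa8, a constitutive chaperone with many processed copies, stood at 123 to 145 CPM in SCI Tam and at 45.6 to 56.7 CPM in SCI Veh, but at 147 to 206 FPKM in SCI Tam and 152 to 173 FPKM in SCI Veh. Its groups lay apart in counts (log2 1.37, SE 0.09) and overlapped in FPKM (0.03), and the sign in FPKM turned without library 452. Acp1, a small tyrosine phosphatase, stood at 23.2, 26.5, 25.9 and 24.2 CPM in libraries 452, 513, 549 and 564 and at 8.61, 4.03, 4.00 and 3.72 FPKM, against 2.89 to 3.83 CPM and 2.47 to 3.40 FPKM in SCI Veh. Library 452 had 145 CPM and 206 FPKM for Hspa8, where SCI Veh library 457 had 56.7 CPM and 173 FPKM. For Acp1, uninjured library 467 had 18.3 CPM and 7.02 FPKM, and the other uninjured libraries 3.00 to 5.01 CPM and 2.45 to 3.05 FPKM. For these 2 genes counts were thus high against FPKM in some libraries outside 513, 549 and 564 as well. For stepped genes only the sign of the change was accepted, not its size.

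**Figure D1:**
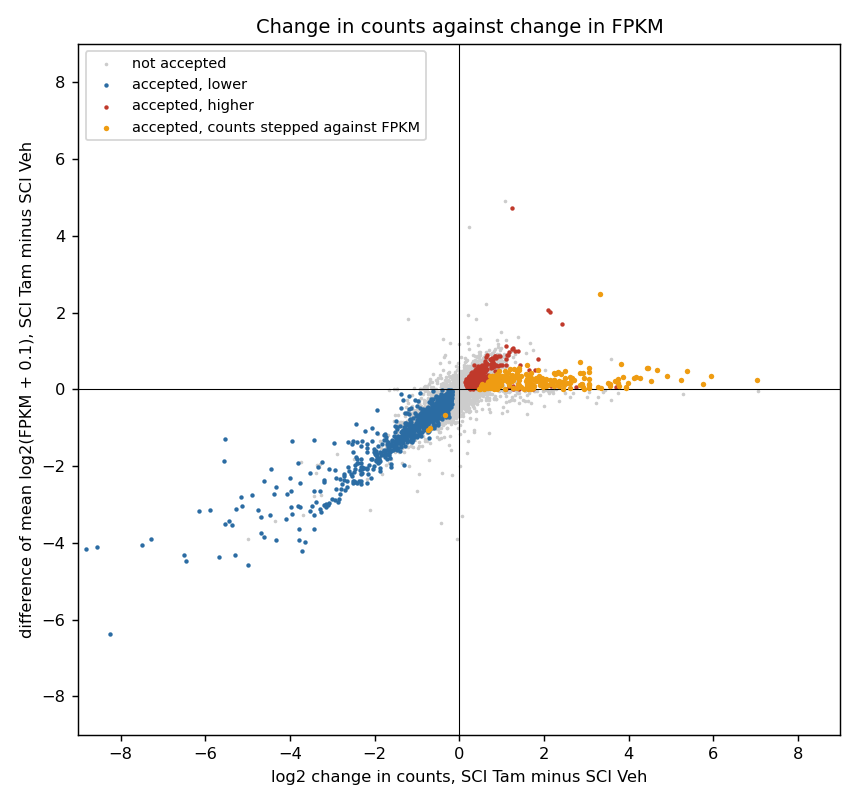
Log2 change in counts (x axis) against the difference of mean log2(FPKM + 0.1) (y axis), SCI Tam minus SCI Veh, for the genes tested; each point is a gene, blue and red are accepted falls and rises, and orange are accepted genes whose counts stepped against FPKM in 3 SCI Tam libraries. The falls lie near the diagonal, while most of the 234 stepped rises lie close to the horizontal axis, with a median of 1.59 in counts and 0.22 in FPKM.

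Transcripts of the line's own genes did not pass the test. Hras1, which encodes a Ras protein, stood at 17.3, 14.6, 13.7 and 15.3 CPM in SCI Tam (libraries 452, 513, 549 and 564, the order used throughout) and at 14.0, 14.7, 16.8 and 16.1 CPM in SCI Veh (libraries 402, 428, 429 and 457). Nras, another Ras gene, had 17.5, 20.5, 14.7 and 19.0 CPM against 14.4, 17.6, 23.4 and 17.9 CPM, and the groups overlapped for both genes. The log2 changes were -0.02 (SE 0.12, adjusted p = 0.92) and -0.03 (SE 0.18, adjusted p = 0.91). Slc1a3, whose promoter drives the Cre, stood at 195 to 241 CPM in SCI Tam and at 185 to 212 CPM in SCI Veh (log2 0.12, SE 0.08, adjusted p = 0.33). Counts over whole genes do not read recombination in a minority of cells.

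**Figure D2:**
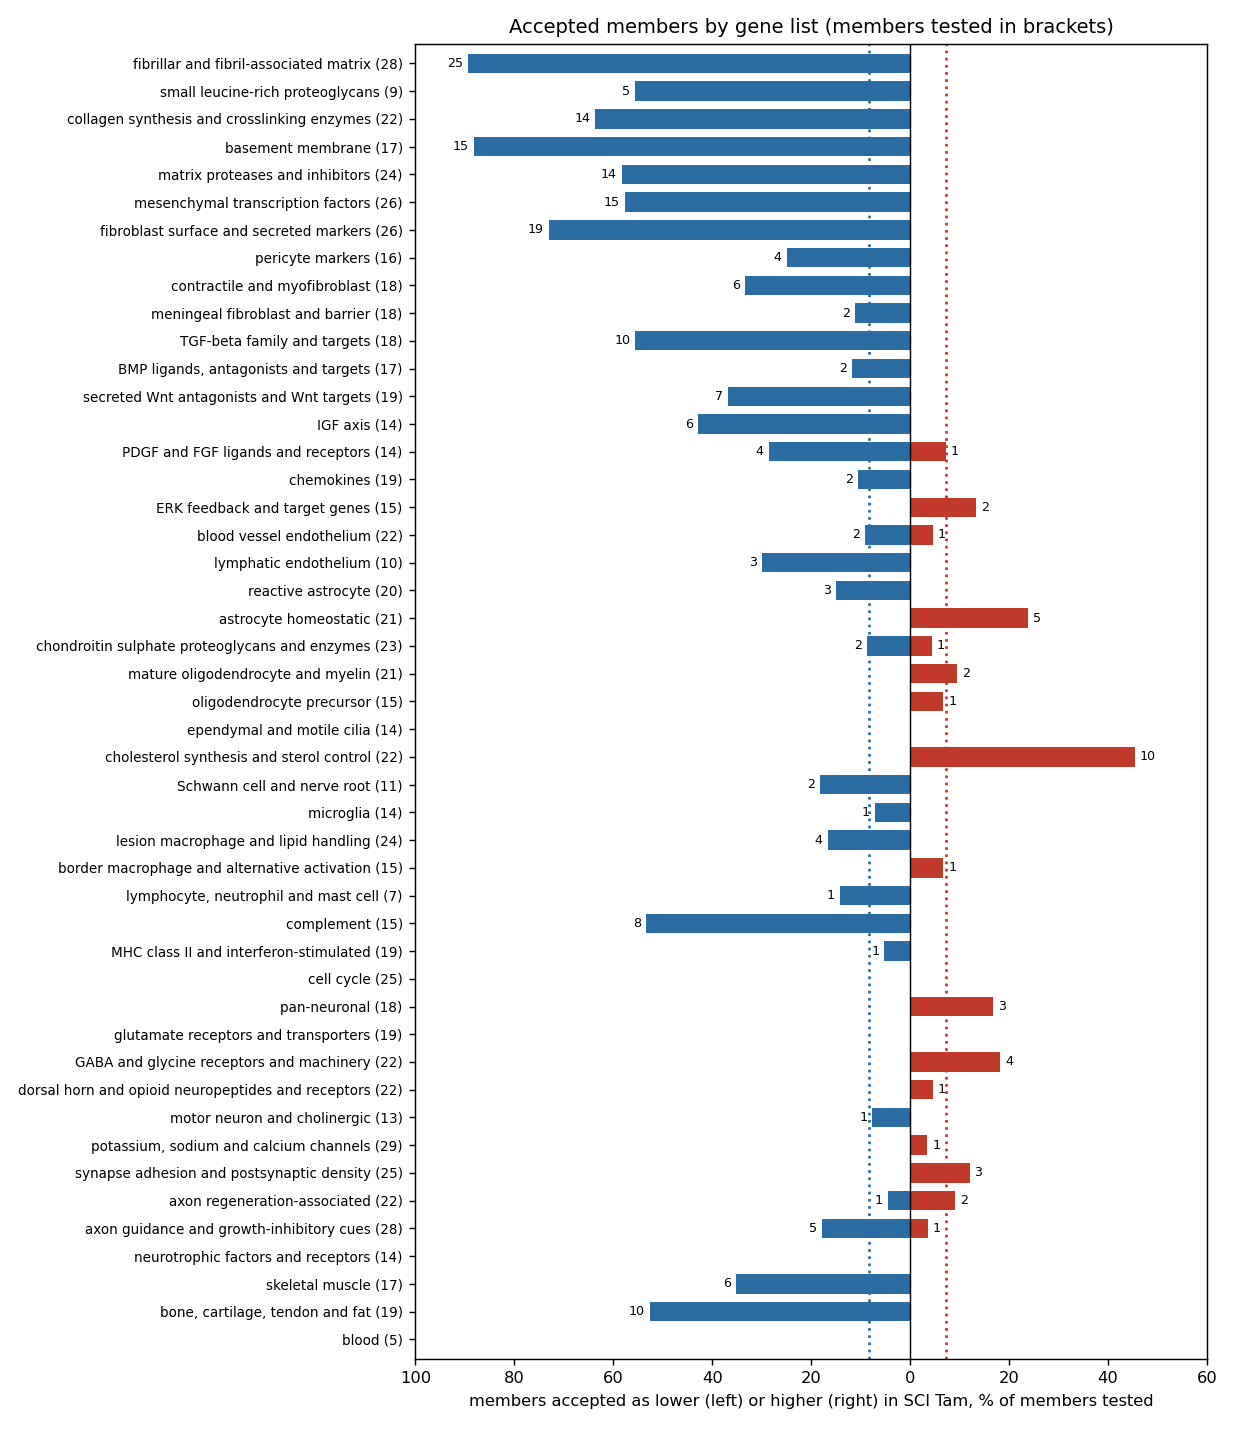
Share of the tested members of 47 gene lists that were lower (left, blue) or higher (right, red) in SCI Tam than in SCI Veh lesions, in percent, with the number of members beside each bar and the number tested in brackets; dotted lines mark the shares of all genes tested, 8.26% lower and 7.19% higher. Lists of matrix and stromal genes extend to the left, and cholesterol synthesis (10 of 22) is the list with the longest bar to the right.

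In the fits with a term for the sample name series, for sex or for the muscle score, the calls fell to 40 lower and 17 higher (0.243% and 0.103% of genes tested), 582 and 379 (3.53% and 2.3%), and 61 and 10 (0.37% and 0.0607%). At an unadjusted p under 0.05 these fits had 7.42% of genes lower and 6.15% higher (series), 14.2% and 12.7% (sex) and 9.01% and 9.39% (muscle), and the fit of group means 17.2% and 16.2%, which are the backgrounds for the unadjusted counts below. The series term leaves library 452 as the SCI Tam library set against vehicle. All told, 20 genes passed in the fit of group means and in each of the 3 fits with a term, 20 of them lower and 0 higher by edgeR. They comprise 6 basement membrane genes (Col4a1, Col4a2, Col4a5, Col18a1, Lamb1 and Lamc1), 3 chains of type VI collagen (Col6a1, Col6a2, Col6a3), the collagens Col8a1 and Col12a1, the collagen enzymes Loxl2 and Lepre1, the matrix proteins Matn2 and Fndc1, the secreted Wnt binder Sfrp4, the stromal calcium binder S100a4, the potassium channel Kcnj15, the epidermal growth factor receptor Egfr, and 1 uncharacterised gene. Each term was entered alone in these 3 fits. Sex and series terms were also entered together, an alternative chosen after seeing the data. There Col4a1, Col4a2, Col18a1, Lamc1, Loxl2, Matn2, S100a4, Kcnj15 and Egfr passed. The rest of the 20, among them the 3 type VI chains, did not.

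Egfr, a receptor tyrosine kinase that signals through Ras, had the smallest SE of the 20. It stood at 24.7, 23.2, 25.1 and 25.1 CPM in SCI Tam and at 47.2, 43.3, 48.6 and 53.7 CPM in SCI Veh, and at 17.7 CPM on average in uninjured cord. The 4 SCI Tam libraries lay within 2 CPM of one another and all below the lowest vehicle library. Egfr fell by 0.98 on the log2 scale (SE 0.07, adjusted p = 7.5e-05), and by 0.97, 0.98 and 0.87 with the series, sex and muscle terms (adjusted p = 0.0162, 0.00231 and 0.0023). It was also lower in FPKM (-0.78).

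Basement membrane genes were lower for 15 of 17 tested and higher for none, with a median log2 change of -1.25. Col4a1, the main chain of type IV collagen, stood at 52.7, 73.4, 111 and 81.8 CPM in SCI Tam against 262, 193, 222 and 249 CPM in SCI Veh. Its partner chain Col4a2 had 58.8, 62.9, 86.9 and 65.2 CPM against 187, 153, 165 and 183 CPM, so every vehicle library was above every tamoxifen library for both. The log2 changes were -1.53 (SE 0.19, adjusted p = 0.00076) and -1.33 (SE 0.13, adjusted p = 0.00031). The 2 genes are read from opposite strands of chromosome 8 with start sites 21 bases apart (GRCm38.p6), a head-to-head pair.

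The laminins, trimers that give basement membranes their mesh, were lower for 6 of the 8 chains in the list. Lamb1 stood at 14.9, 14.8, 14.2 and 15.5 CPM in SCI Tam against 63.3, 38.4, 55.2 and 76.1 CPM in SCI Veh, and at 18.2 CPM on average in uninjured cord. The SCI Tam libraries were close together and the vehicle libraries spread by library, 428 being the lowest of them. Lamb1 fell by 1.97 on the log2 scale (SE 0.18) and Lamc1, with 102 to 111 CPM against 190 to 249 CPM, by 1.05 (SE 0.10), both with adjusted p = 0.00025. Nidogen (Nid1), which links laminin to collagen IV, fell by 1.32, and the multiplexin Col15a1 by 2.18. Lama1 (-0.78) and Lamc3 (-0.73), other laminin chains, did not pass. Library 428 was above every SCI Tam library for 17 of the 17 genes (22.8% of all genes tested), and library 429, the female vehicle library, for 16 (27.5%). Library 452 was below every SCI Veh library for 15 (26.6%). In the fits with the series, sex and muscle terms 7, 14 and 10 of the 17 passed.

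Fibrillar and fibril-associated matrix genes were lower for 25 of 28 tested and higher for none, and all 28 had a log2 change below 0, from -5.69 to -0.24, with a median of -2.60. Col1a1, the main chain of type I collagen, stood at 113, 114, 101 and 189 CPM in SCI Tam against 1626, 698, 1272 and 1949 CPM in SCI Veh, and Col3a1, type III collagen, at 74.7, 104, 67.7 and 278 CPM against 1855, 844, 1829 and 2734 CPM. For both genes library 564 was the highest of its group and library 428 the lowest of its own, and the groups lay apart. Their log2 changes were -3.42 (SE 0.50, adjusted p = 0.0022) and -3.79 (SE 0.58, adjusted p = 0.0025).

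Type VI collagen, a beaded network that joins fibrils to basement membranes and cells, was lower for 4 of the 5 chains tested. Col6a1 stood at 33.9, 29.7, 28 and 55.0 CPM in SCI Tam against 352, 174, 303 and 428 CPM in SCI Veh. That is 8.57-fold lower, and the SCI Tam levels lie near the 25.6 CPM of uninjured cord. Col6a2 was 8.94-fold and Col6a3 12.6-fold lower, and Col6a5, with 0.60, 0.09, 0.09 and 0.28 CPM against 10.3, 4.57, 5.69 and 4.55 CPM, fell by 4.61 on the log2 scale. These 4 chains had adjusted p = 0.00025, and Col6a6 did not pass (-0.83). Col6a5 and Col6a6 are in no list. Among fibril-associated proteins, Col12a1 fell by 2.09 on the log2 scale, Col14a1 by 3.79 and the short-chain collagen Col8a1 by 2.50.

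Matricellular proteins, which sit in the matrix and alter how cells hold to it, included the largest falls of the list. Periostin (Postn) stood at 15.6, 13.7, 9.02 and 12.1 CPM in SCI Tam against 200, 59.0, 274 and 470 CPM in SCI Veh. Its log2 change was -4.33 (SE 0.50, adjusted p = 0.00068), with a wide range among the vehicle libraries and none in the SCI Tam range. The tenascin Tnn had 0.28 to 0.55 CPM in SCI Tam against 18.2, 1.36, 19.9 and 23.6 CPM, and thrombospondin Thbs4, a protein of tendon and muscle as well, 0.36 to 1.01 CPM against 24.7, 3.09, 38.0 and 73.8 CPM. Library 428 had the lowest vehicle value for all 3. Thbs3 changed less, from 31.9 to 52.7 CPM in SCI Veh to 12.6 to 17.6 CPM in SCI Tam (log2 -1.50, adjusted p = 0.00052). The 3 members that did not pass were Sparc (-0.24), Tnc (-0.93) and Thbs1 (-0.92). At an unadjusted p under 0.05 by edgeR all 28 members of the list were lower, where 17.2% of all genes tested were.

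Across the 28 fibrillar genes, library 452 was below every vehicle library for 28, library 429 above every SCI Tam library for 28 and library 428 for 25. The series, sex and muscle terms left 7, 23 and 14 past the threshold, with list medians of -2.89, -2.87 and -1.96. Col1a1 changed by -3.61 with the series term (adjusted p = 0.134) and by -2.91 with the muscle term (adjusted p = 0.0528), and Col3a1 and Postn did not pass with the series term either, with changes of -4.60 and -4.01 (adjusted p = 0.106 and 0.103). Against library 428 alone, with the 3 vehicle libraries high in muscle transcripts left out, the list median was -1.60.

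**Figure D3:**
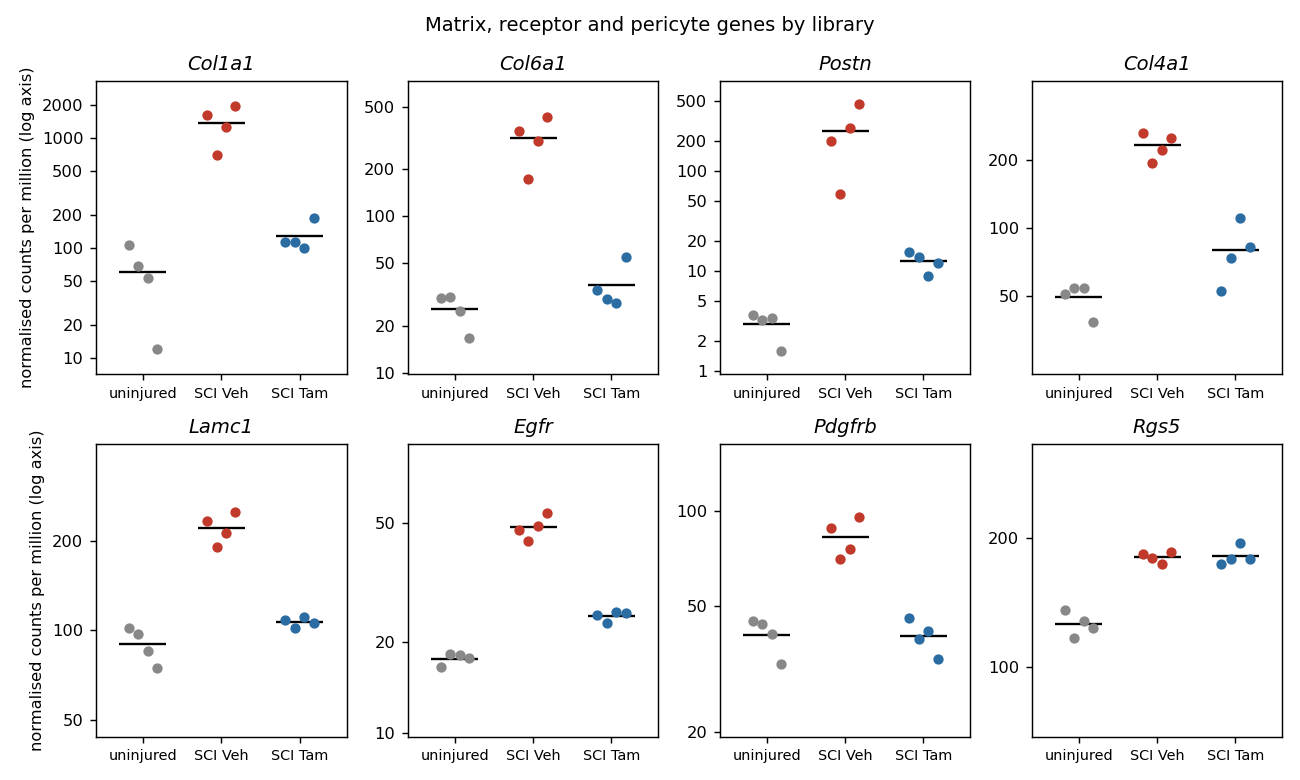
Normalised counts-per-million (log axis) of 8 genes in each uninjured (grey), SCI Veh (red) and SCI Tam (blue) library; each point is a library and each bar the group mean. SCI Tam libraries lie below all SCI Veh libraries for the first 7 genes, and for the pericyte marker Rgs5 the SCI Tam (173 to 194) and SCI Veh (174 to 185) libraries overlap.

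Small leucine-rich proteoglycans, which bind collagen fibrils and set their width, gave 5 falls and no rise among 9 tested (median -1.25). Asporin (Aspn), counted in the fibrillar list, stood at 3.26 to 5.14 CPM in SCI Tam against 112, 27.2, 137 and 230 CPM in SCI Veh (log2 -5.00, SE 0.55). Biglycan (Bgn) fell by 1.91, lumican (Lum) by 3.16, decorin (Dcn) by 1.72 and Prelp by 1.25, with the groups apart for each. Ogn (-1.85), Omd (-1.0), Fmod (-0.87) and Podn (-0.85) did not pass. Of the 9, 0, 4 and 0 passed with the series, sex and muscle terms by edgeR, and 4, 8 and 5 were lower at an unadjusted p under 0.05.

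Enzymes that make and crosslink collagen were lower for 14 of 22 genes, with no rise and a median of -0.86. Loxl2, a lysyl oxidase that crosslinks collagen IV among others, stood at 25.1, 32.7, 43.5 and 50.1 CPM in SCI Tam against 128, 94.7, 130 and 166 CPM in SCI Veh. Loxl2 fell by 1.77 on the log2 scale (SE 0.20, adjusted p = 0.00064). Proline hydroxylation enzymes moved with it, P4ha2 by -1.11 and Lepre1 by -0.96, as did the collagen chaperones Serpinh1 (-1.65) and Fkbp10 (-1.11) and the procollagen peptidase Adamts2 (-1.40). P4ha1 (-0.20), P4ha3 (0.00), Plod2 (-0.51), Plod3 (-0.30), Loxl4 (0.01) and Pcolce2 (0.13) did not pass. With the series term only Loxl2 and Lepre1 passed, and with the sex and muscle terms 12 and 4.

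Of 24 matrix proteases and inhibitors, 14 were lower (9 without library 513) and none higher (median -0.58). Mmp2, a gelatinase of stromal cells, stood at 13.8, 21.2, 25.2 and 20.7 CPM in SCI Tam against 142, 52.0, 151 and 216 CPM in SCI Veh (log2 -2.79, SE 0.34, adjusted p = 0.00076). The membrane protease Mmp14, which activates Mmp2, fell by 1.13, cathepsin K (Ctsk), a collagenase, by 2.33, the serine protease Fap of activated fibroblasts by 4.09 and Adamts12 by 2.31. Mmp13, an interstitial collagenase, had 0.18 to 0.56 CPM against 12.5, 1.48, 8.91 and 5.72 CPM. Plasminogen activator Plat fell by less, from 173 to 187 CPM in SCI Veh to 126 to 149 CPM in SCI Tam (log2 -0.42, adjusted p = 0.0032). Of the 24, 0, 11 and 3 passed with the series, sex and muscle terms by edgeR, and 13, 15 and 13 were lower at an unadjusted p under 0.05.

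Transcription factors of mesenchymal cells were lower for 15 of 26 genes, none was higher, and the median was -1.0. Snai1 and Snai2, repressors of epithelial genes that are active in stromal cells, had 0.52 to 1.44 CPM against 3.31 to 6.58 CPM and 1.2 to 2.43 CPM against 3.33 to 7.45 CPM. Prrx1, a homeobox factor of fibroblasts, stood at 20.1 to 27.8 CPM against 32.7 to 89.2 CPM (log2 -1.32, SE 0.23, adjusted p = 0.0045), and its relative Prrx2 fell by 1.12. Groups lay apart for these 4 genes. Tbx15, a factor of limb and body wall mesenchyme, had SCI Veh levels of 6.41, 1.23, 5.33 and 8.78 CPM, again lowest in library 428, against at most 0.37 CPM in SCI Tam. The 11 members that did not pass include Foxc2 (-1.64), Osr1 (-0.95), Zic1 (-0.47), Heyl (-0.21) and Lef1 (-0.11). The rest of them were Ebf2 (-0.03), Scx (-0.02), Mkx (0.04), Ebf1 (0.07), Foxf2 (0.09) and Ebf3 (0.27). Of the 26, 0, 10 and 0 passed with the series, sex and muscle terms by edgeR, and 13, 14 and 12 were lower at an unadjusted p under 0.05.

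Surface and secreted markers of fibroblasts were lower for 19 of 26 genes with a median of -1.41. S100a4 stood at 9.59, 11.1, 12 and 10.2 CPM in SCI Tam against 31.9, 25.4, 33.9 and 31.5 CPM in SCI Veh and fell by 1.52 (SE 0.17, adjusted p = 0.00052). The membrane protein Lrrc15, a marker of activated fibroblasts, had 0.12 to 0.64 CPM against 11.8, 1.85, 18.2 and 27.4 CPM. Pdgfra (-0.26), also the receptor that marks oligodendrocyte precursors, Thy1 (0.18), also a neuronal protein, and Ly6a (0.07), also on endothelium, did not pass. Neither did the other members Islr (-1.41), Pi16 (-0.63), Clec3b (-0.17) and Nt5e (0.00). In the fits with the series, sex and muscle terms 2, 17 and 2 of the 26 passed.

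Pericyte markers were lower for 4 of 16 tested (Pdgfrb, Mcam, Tbx18 and Anpep), none was higher, and the median was -0.41. The series, sex and muscle terms gave 0, 4 and 1 falls among the 16 by edgeR. At an unadjusted p under 0.05, 4, 7 and 5 were lower and 0 higher in these fits. Pdgfrb, the receptor through which endothelium holds pericytes, stood at 45.8, 39.4, 41.6 and 34.1 CPM in SCI Tam against 88.2, 70.6, 75.7 and 96.1 CPM in SCI Veh. The SCI Tam levels lie around the 40.7 CPM of uninjured cord, and Pdgfrb fell by 1.04 (SE 0.12, adjusted p = 0.00074; adjusted p = 0.102 with the series term). Rgs5, a regulator of G proteins found in capillary pericytes, stood at 173, 179, 194 and 178 CPM against 183, 179, 174 and 185 CPM, with a log2 change of 0.01 (SE 0.06, adjusted p = 0.93), and the pericyte channel genes Kcnj8 (0.01) and Abcc9 (0.17) did not pass either. Cspg4, the NG2 proteoglycan of pericytes and of oligodendrocyte precursors, had 57.8, 40.0, 71.8 and 39.5 CPM against 88.7, 55.4, 98.6 and 71.2 CPM and did not pass (-0.59, adjusted p = 0.064).

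Contractile genes, which smooth muscle and myofibroblasts share, gave 6 falls in 18 (median -0.43). With the series, sex and muscle terms 0, 2 and 0 were lower by edgeR, and 2 or 3 without library 402, 429, 457, 513, 549 or 564. Filamin (Flna), which crosslinks actin, stood at 205 to 275 CPM against 326 to 413 CPM and fell by 0.64 (adjusted p = 0.0052), and smoothelin (Smtn) fell by 0.88. Smooth muscle actin (Acta2), the usual marker of myofibroblasts, had 18.3, 19.4, 22.8 and 31.8 CPM against 33.5, 25.6, 19.8 and 43.4 CPM, and the groups overlapped (-0.41, adjusted p = 0.30). Desmin (Des), a filament of muscle of every type and of pericytes had 39.3, 39.3 and 78.6 CPM in libraries 402, 429 and 457, which are high in muscle transcripts, 6.67 CPM in library 428 and 5.51 to 7.28 CPM in SCI Tam. Its call (log2 -2.60, adjusted p = 0.032) was lost in 6 of 8 refits without 1 library (402, 429, 457, 513, 549 or 564, adjusted p at most 0.093). Of 18 meningeal and barrier genes only Slc47a1, a transporter, and Foxp2 were lower, Slc47a1 with 0.17 to 2.57 CPM against 8.89 to 24.7 CPM. The groups overlapped for Foxp2, a gene whose counts stepped against FPKM, and its call was not held by every leave-one-out fit (adjusted p at most 0.0962).

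Of 18 genes of the TGF-beta family, its storage proteins and targets, 10 were lower and none higher (median -0.58). Latent TGF-beta binding proteins hold the growth factor in the matrix: Ltbp2 had 1.08, 3.08, 5.46 and 2.66 CPM against 40.1, 14.1, 34.6 and 34.4 CPM, a fall of 3.29 (SE 0.38, adjusted p = 0.00065), or of 4.83 with the series term. Ltbp1, Ltbp3 and Ltbp4 fell by 1.44, 0.58 and 1.36, the receptor Tgfbr2 by 0.85 and the procollagen protease Bmp1 by 0.86. The ligand Tgfb1 (-0.56), the receptor Tgfbr1 (-0.45), the inhibitor Smad7 (-0.25) and the targets Ctgf (-0.57) and Skil (-0.05) did not pass. With the series, sex and muscle terms 1, 7 and 2 of the 18 passed.

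In the BMP list 2 of 17 genes were lower, the ligand Gdf10 (3.64 to 6.34 CPM against 14.1 to 38.7 CPM, log2 -2.31) and the antagonist Chrd (-0.72), while the target genes Id1 (-0.16), Id2 (0.12) and Id3 (0.02) did not pass. In the Wnt list 7 of 19 were lower with a median of -0.44. Sfrp4, a secreted protein that binds Wnt, stood at 5.51, 2.70, 3.56 and 9.73 CPM against 85.9, 45.9, 45.9 and 55.3 CPM, and fell by 3.44 (SE 0.33, adjusted p = 0.00025). The matricellular Wisp1 and Wisp2 fell by 2.45 and 1.34, Dkk2, an antagonist, by 2.32, and the feedback gene Axin2 (-0.30) did not pass. Sfrp2 was at 6.95, 7.65, 14.0 and 53.1 CPM in SCI Veh, and its change of -2.31 became -1.20 without library 457 and did not pass without library 513 (adjusted p = 0.062).

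The insulin-like growth factor list had 6 falls in 14 genes (median -0.64), and 0, 4 and 0 with the series, sex and muscle terms by edgeR. The binding proteins Igfbp4, Igfbp5 and Igfbp7 fell by 1.28, 1.35 and 0.90 and the clearing receptor Igf2r by 0.81, with the groups apart for all 4. Igf1 itself had 65.4, 42.8, 37.3 and 39.0 CPM against 122, 68.6, 125 and 180 CPM (-1.44, adjusted p = 0.038), a call that was lost without library 402, 429, 457, 513, 549 or 564 (adjusted p at most 0.103). Igfbp2, a binding protein of glia and meninges, did not pass (0.66). Of 14 PDGF and FGF genes 4 were lower (1 or 2 without library 402, 513 or 564) and 1 higher with a median of 0.05. The receptor Fgfr1 stood at 125 to 144 CPM against 173 to 189 CPM (-0.43, adjusted p = 0.0021), and the receptor Fgfr2 (0.06) and the PDGF ligand Pdgfa (-0.09) did not pass.

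ERK feedback and target genes, whose transcription follows Ras signalling, were lower for 0 of 15 by edgeR (3 at an unadjusted p under 0.05, and 1 by DESeq2 and 1 by limma-voom), 2 were higher and the median was 0.06. Etv1, an ETS factor, stood at 56.9, 76.0, 76.6 and 76.4 CPM in SCI Tam against 47.0, 47.9, 49.7 and 44.8 CPM in SCI Veh. Library 452 was the lowest of its group, yet above every vehicle library. Etv1 rose by 0.60 (SE 0.10, adjusted p = 0.0035; 0.27 with the series term, adjusted p = 0.302). Etv5 rose by 0.26 in counts but by 0.04 in FPKM, and did not pass with any of the 3 terms (adjusted p = 0.646, 0.167 and 0.249) or in every leave-one-out fit (at most 0.102). The phosphatase Dusp6 (-0.27), Spry1 (-0.20), Spry2 (0.14), Spry4 (0.08) and Egr1 (-0.51) did not pass.

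Of 22 endothelial genes 2 were lower, Tie1 (-0.47) and Cdh5 (-0.69), 1 was higher, the transporter Slco1c1 (0.34), and the median was -0.10. Pecam1, the endothelial adhesion protein, had 35.0, 38.7, 46.3 and 48.9 CPM against 53.6, 49.1, 47.9 and 58.5 CPM and did not pass (-0.31, adjusted p = 0.11), nor did Cldn5 (0.08) or Slc2a1 (0.08) of the blood-brain barrier. The calls of Cdh5 and Slco1c1 were lost without library 457 or 513, and that of Slco1c1 also without 402 or 549 (adjusted p at most 0.0521 and 0.0758).

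Lymphatic markers were lower for 3 of 10 genes, and 2 of the 3 were close to absent in SCI Tam. Ccl21a, a chemokine of lymphatic endothelium that draws dendritic cells and T cells, had 1 count in the 4 SCI Tam libraries together and 478 in the 4 SCI Veh libraries. By library these are 0.12, 0, 0 and 0 CPM against 11.8, 3.58, 9.18 and 18.7 CPM. Mmrn1, a multimerin of lymphatic endothelium and platelets, had 2 counts against 411 and, by library, 0 to 0.09 CPM against 10.7, 2.72, 7.44 and 16.3 CPM. Uninjured cord averaged 0.03 and 0.09 CPM for the 2 genes. Ccl21a has near-identical copies in the mouse genome, so its reads may be split among them. Flt4, a receptor of lymphatic and some blood endothelium, fell by 1.04 with 8.20 to 11.1 CPM against 13.8 to 28.8 CPM. Lyve1 (-1.72), Pdpn (-0.66) and Prox1 (-0.19), the other defining markers, did not pass, and Ccl21a and Mmrn1 did not pass with the series term (adjusted p = 0.0939 and 0.0885), in which the 1 count of Ccl21a lies in library 452 and Mmrn1 has 0 there.

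Complement genes were lower for 8 of 15 (4 without library 513 or 564), with none higher and a median of -0.74. The proteases C1s and C1ra, which start the classical cascade, stood at 4.08, 3.35, 2.77 and 4.59 CPM against 17.2, 9.38, 18.1 and 20.8 CPM and at 4.13 to 5.38 CPM against 9.01 to 17.4 CPM. C1s fell by 2.15 (SE 0.27, adjusted p = 0.00098), C1ra by 1.46 and C6, a part of the membrane attack complex, from 1.36 to 5.33 CPM to at most 0.55 CPM. The microglial subunits C1qa (-0.32), C1qb (-0.33) and C1qc (-0.38) did not pass, nor did the receptors C3ar1 (-0.51) and C5ar1 (-0.32). Of the 15, 0, 7 and 1 passed with the series, sex and muscle terms by edgeR, 3, 13 and 8 were lower at an unadjusted p under 0.05, and the median against library 428 alone was -0.24.

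Phagocyte lists had few changed members. Of 14 microglia genes 1 was lower (Tmem119, with a call that was lost without library 402, 429, 513 or 564, adjusted p at most 0.069), with a median of -0.32. Of 24 genes of lesion macrophages and lipid handling 4 were lower (7 without library 452) and none higher (median -0.48). Itgax, an integrin of activated phagocytes, stood at 49.6, 35.0, 21.5 and 14.2 CPM against 81.8, 64.7, 123 and 69.3 CPM (log2 -1.51, SE 0.32, adjusted p = 0.011), and the macrophage elastase Mmp12 fell by 2.51. Cd68, a lysosomal protein of phagocytes, had 76.7, 104, 126 and 44.4 CPM against 161, 85.3, 178 and 95.9 CPM and did not pass (-0.57, adjusted p = 0.19). The 2 lists had medians of -0.01 and -0.02 against library 428 alone, and library 428 was above every SCI Tam library for 1 of 14 and 3 of 24 genes, while library 429 was for 11 and 20.

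Astrocyte genes of the homeostatic kind were higher for 5 of 21 with none lower (median 0.18). The series, sex and muscle terms left 0, 1 and 0 of these rises by edgeR, and 1 or 2 genes were higher without library 402, 457, 513, 549 or 564. Astrocyte genes of the reactive kind were lower for 3 of 20 with none higher (median -0.38). Gfap, the astrocyte filament, had 4721, 6560, 7107 and 5649 CPM against 5206, 5300, 5761 and 4435 CPM and did not pass (0.22, adjusted p = 0.22). The water channel Aqp4 had 1354, 1969, 2014 and 1234 CPM against 1127, 1191, 1705 and 1138 CPM (0.35, adjusted p = 0.19), again with overlap. Slc7a10, an amino acid exchanger of astrocytes, stood at 66.6, 83.9, 65.4 and 71.3 CPM against 53.8, 63.0, 47.8 and 54.8 CPM and rose by 0.39 (SE 0.09, adjusted p = 0.016). Entering the series, sex and muscle terms gave 0, 6 and 0 falls among the 20 reactive genes by edgeR. At an unadjusted p under 0.05, 5, 10 and 4 were lower and 2, 0 and 0 higher. In the fit of group means the reactive list's falls were C3, Serping1 and Ptx3. C3 lost its call without library 513 or 564, Serping1 and Ptx3 without most single libraries (adjusted p at most 0.0579, 0.0701 and 0.0948).

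Chondroitin sulphate proteoglycans, which stop growing axons, showed 2 falls and 1 rise among 23 genes of core proteins and enzymes (median -0.06). Dse, the epimerase that turns chondroitin into dermatan sulphate, stood at 14.5 to 15.8 CPM against 19.6 to 30.8 CPM and fell by 0.81 (SE 0.16, adjusted p = 0.0067). The other fall was the core protein Acan (-0.31), and the rise was the link protein Hapln1 (0.43). Vcan (-0.06), Bcan (-0.12), Cspg5 (0.20) and Ptprz1 (0.06) did not pass, and neither did Ncan (0.77). Of 21 myelin genes 2 were higher, the myelin glycoprotein Omg (118 to 155 CPM against 104 to 117 CPM, log2 0.37) and Ermn, and myelin basic protein (Mbp) had 7963 to 8359 CPM against 6654 to 8315 CPM (0.10, adjusted p = 0.42). Of 15 precursor genes Lhfpl3 alone was higher (0.46, adjusted p = 0.015).

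Genes of cholesterol synthesis and its control were higher for 10 of 22 tested (6 without library 513) and lower for none, and all 22 had a log2 change above 0, from 0.08 to 0.85, with a median of 0.38. Insig1, which holds the sterol sensor in the endoplasmic reticulum and is itself a target of the sterol-regulated factor SREBP, stood at 106, 125, 135 and 158 CPM in SCI Tam against 74.0, 83.2, 61.2 and 72.3 CPM in SCI Veh. Every SCI Tam library was above every SCI Veh library, and uninjured cord averaged 154 CPM. Insig1 rose by 0.85 (SE 0.13, adjusted p = 0.0023), 1.81-fold. Fdft1, squalene synthase, stood at 52.9, 55.3, 56.2 and 70.5 CPM against 37.6, 41.7, 34.6 and 41.8 CPM and rose by 0.59. Sc5d and Nsdhl, late enzymes of the pathway, rose by 0.58 and 0.42, the sterol carrier Stard4 by 0.61 and phosphomevalonate kinase (Pmvk) by 0.31 (call lost without library 513, adjusted p = 0.0606). Idi1 (0.74), an isomerase of the pathway, and Srebf2 (0.09), which encodes an SREBP, did not pass.

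Promoters of the pathway share a CCAAT box, the site of the factor NF-Y, which works beside SREBP. In the 250 bases before the start site (RefSeq, GRCm38.p6), CCAAT on either strand was found for 14 of the 14 tested sterol genes with a promoter in the table, against 37.5% of 27025 genes and 8 of 20 fibrillar matrix genes (40%). A gene with several start sites was counted where any of its promoters held the box, here and over all genes. Pmvk also has an entry without the box (chr3:89459321-89459570), as does Dhcr7 (chr7:143822917-143823166). All 5 accepted rises with an entry held the box in at least 1 promoter (the other 5 have no entry). These are shown because they are the members that changed; each window of 25 bases is read so that the box reads CCAAT, with the box in capitals, and the strand is that of the read sequence.
Insig1: gccgccggagCCAATgggaggaggg
Sc5d: aggcagccggCCAATcagcagccgg
Cyp51: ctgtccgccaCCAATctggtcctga
Nsdhl: atgattttgcCCAATgaggctagtc
Pmvk: ctcaggttggCCAATtcacagcatc
They lie at chr5:28071186-28071210 (minus strand, 216 bases before the start site), chr9:42264310-42264334 (plus, 24 bases), chr5:4104712-4104736 (minus, 29 bases), chrX:72918491-72918515 (minus, 20 bases) and chr3:89454395-89454419 (plus, 136 bases). The sterol element TCACNCCAC was found in 0 of the 14 promoters and in 1.22% of all genes, which says only that these letters are not in the window. A match of 5 letters is a description and not a site.

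Library 452 was above every SCI Veh library for 15 of the 22 sterol genes (26.8% of all genes tested). Library 429 lay below every SCI Tam library for 20 (28.3%) and library 428 for 13 (21.5%). With the series term 1 of the 22 passed (Sc5d, 0.89), with the sex term 15 and with the muscle term 0 by edgeR (4, 20 and 10 were higher at an unadjusted p under 0.05), and the list medians were 0.23, 0.59 and 0.29. Insig1 had adjusted p = 0.193, 0.00323 and 0.0583 in the 3 fits. Against library 428 alone the list median was 0.21.

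**Figure D4:**
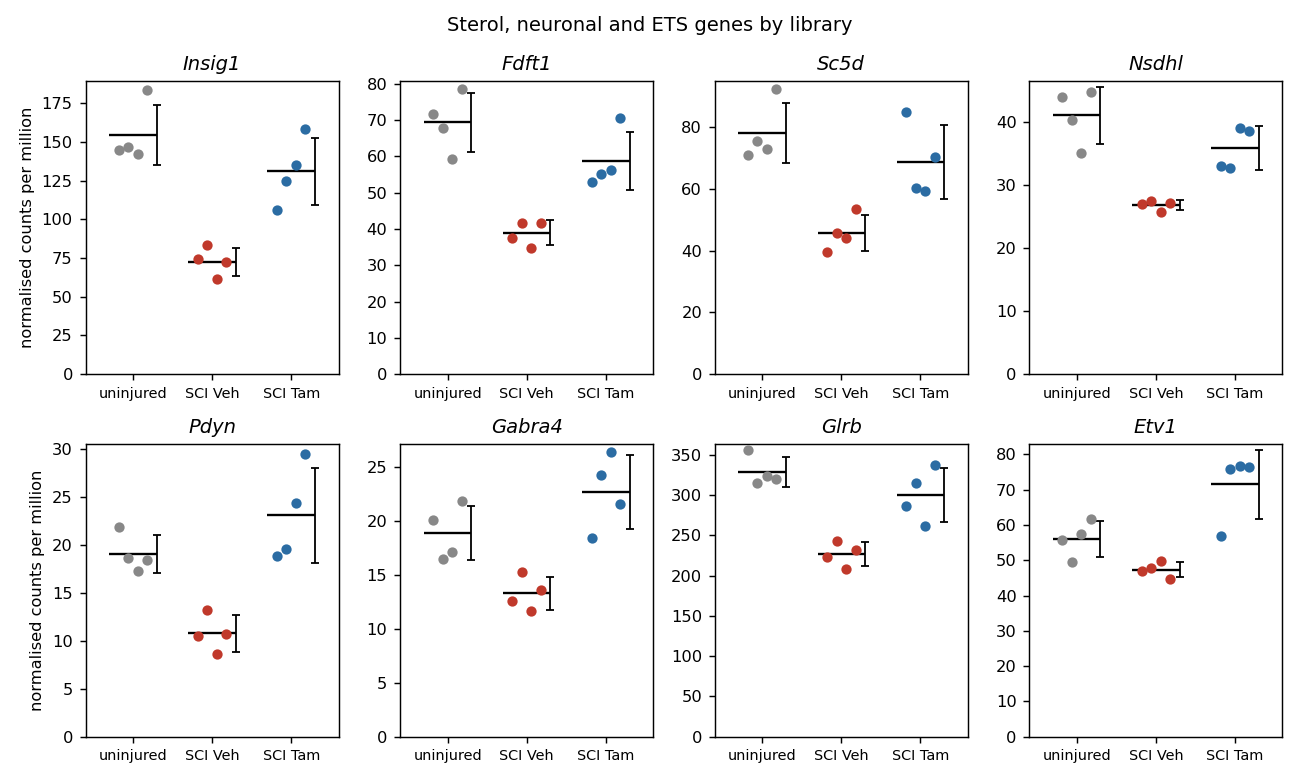
Normalised counts-per-million of 8 genes that were higher in SCI Tam lesions, in uninjured (grey), SCI Veh (red) and SCI Tam (blue) libraries; each point is a library, horizontal bars are group means, and error bars are 1 SD (n = 4). SCI Tam libraries lie above all SCI Veh libraries for each gene shown, for Insig1 from 106 to 158 against 61.2 to 83.2.

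Of 18 pan-neuronal genes 3 were higher (Stmn2, Uchl1 and Elavl4) and none lower (median 0.20). Stmn2, a microtubule regulator of axons, stood at 351, 386, 367 and 395 CPM against 307, 320, 306 and 304 CPM and rose by 0.28 (SE 0.06, adjusted p = 0.0083). Rbfox3, the nuclear marker NeuN, had 130, 98.7, 93.1 and 113 CPM against 96.5, 116, 80.7 and 98.9 CPM and did not pass (0.15, adjusted p = 0.38). Of 19 glutamate receptor and transporter genes 0 passed by edgeR (1 lower and 4 higher at an unadjusted p under 0.05, 1 higher by DESeq2 and 0 by limma-voom; median 0.05), with Slc17a6, the vesicular transporter of excitatory neurons, at 0.37 (adjusted p = 0.077).

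Inhibitory receptor genes were higher for 4 of 22 (7 without library 549), with none lower and a median of 0.26. Gabra4, a GABA receptor subunit, stood at 18.5, 24.3, 26.4 and 21.6 CPM against 12.6, 15.3, 11.7 and 13.6 CPM, and rose by 0.78 (SE 0.13, adjusted p = 0.0042). The glycine receptor subunit Glrb, which anchors glycine receptors at synapses, had 287, 315, 261 and 338 CPM against 223, 243, 208 and 232 CPM (0.41, adjusted p = 0.0078), and Gabrg1, another GABA receptor subunit, rose by 0.53. The groups lay apart for Gabra4 and Glrb, and library 429 was inside the SCI Tam range for Gabrg1. The enzymes Gad1 (0.33) and Gad2 (0.26), which make GABA, and the chloride exporter Slc12a5 (0.07) did not pass. With the series, sex and muscle terms 0, 3 and 0 of the 22 passed by edgeR, and 7, 10 and 6 were higher at an unadjusted p under 0.05.

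Pdyn, the precursor of the dynorphin opioid peptides of dorsal horn neurons, had the largest rise among genes with a group mean of at least 5 CPM, groups apart and no step. It stood at 18.8, 19.6, 24.4 and 29.5 CPM in SCI Tam against 10.5, 13.2, 8.63 and 10.7 CPM in SCI Veh, and at 19.0 CPM on average in uninjured cord. The groups lay apart, and Pdyn rose by 1.11 in counts (SE 0.16, adjusted p = 0.0021) and by 1.13 in FPKM, 2.15-fold. With the series, sex and muscle terms it changed by 0.81, 1.23 and 0.99 (adjusted p = 0.159, 0.0148 and 0.0528). The other 21 neuropeptide and receptor genes did not pass, with Penk, the enkephalin precursor, at 0.04, Sst at 0.64 and Tac1 at 0.46.

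Synapse adhesion and scaffold genes were higher for 3 of 25 (Nlgn1, Sv2b and Lrrtm2, by 0.31, 0.34 and 0.28; median 0.05), and ion channels for 1 of 29 (median 0.05). Growth-associated genes gave 1 fall and 2 rises in 22, with Gap43, the growth cone protein, at 149, 128, 141 and 172 CPM against 148, 151, 149 and 132 CPM (0.02, adjusted p = 0.87). Axon guidance and inhibitory cues gave 5 falls (2 without library 513) and 1 rise in 28. Efnb1, an ephrin, stood at 10.2, 10.2, 8.32 and 11.1 CPM against 20.1, 19.1, 14.6 and 23.4 CPM and fell by 0.95 (SE 0.17, adjusted p = 0.0046). Sema3b, a secreted semaphorin, fell by 0.50, and Sema3a (0.06), Rtn4 (0.07), Rgma (-0.03) and Epha4 (-0.01) did not pass.

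The 15 largest rises with groups apart and no step hold 5 genes that are in no list and are not predicted genes or clones, Arxes1, Nutf2, Vdac3, Rab5a and Dusp26, each under 2-fold. Dusp26, a phosphatase of neurons, stood at 91.6, 89.6, 86.1 and 119 CPM against 57.8, 66.7, 63.2 and 56.4 CPM (0.66 in counts and 0.65 in FPKM, adjusted p = 0.002). Rab5a, a GTPase of early endosomes, had 131, 190, 195 and 197 CPM against 105 to 118 CPM, a change of 0.68 in counts and 0.35 in FPKM. The mitochondrial pore Vdac3 and the nuclear import factor Nutf2 rose by 0.68 and 0.69 in counts and by 0.36 and 0.25 in FPKM. For these last 3 genes library 452 was the lowest of the SCI Tam libraries, and the changes with the series term were 0.23, 0.28 and 0.34.

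In 3 of the 47 lists library 452 lay outside the range of the other SCI Tam libraries for every gene tested: MHC class II and interferon-stimulated genes, cell cycle genes and the 5 blood genes. Over all genes tested it lay above the other SCI Tam libraries for 30.7% and below them for 30.9%. Of 19 MHC class II and interferon-stimulated genes 1 was lower (median -0.08), but library 452 was above every other SCI Tam library for 19 and above every SCI Veh library for 17. Cd74, the class II invariant chain, had 184, 28, 12.7 and 11.3 CPM against 58.1, 49.6, 78.8 and 110 CPM. H2-Aa had 63.6, 13.4, 5.64 and 5.33 CPM against 21.2, 16.8, 31.0 and 29.1 CPM, so 3 SCI Tam libraries were below all vehicle libraries and 1 above for both. Cd74 and H2-Aa did not pass in the 12 libraries (-0.37 and -0.19), and without library 452 they fell by 2.11 and 1.60, past the threshold (adjusted p = 0.0277 and 0.0495). Of 25 cell cycle genes 0 passed by edgeR (6 higher at an unadjusted p under 0.05, 1 by DESeq2 and 0 by limma-voom), and all had a change above 0 (median 0.51). Library 452 was below every other SCI Tam library for 25 of them, with Mki67, the proliferation marker, at 8.75, 23.0, 41.1 and 20.0 CPM against 16.5, 15.9, 21.2 and 14.7 CPM (0.45, adjusted p = 0.46). Without library 452, 9 of the 19 class II and interferon genes were lower and 14 of the 25 cell cycle genes higher. With the series term the medians of these lists were 1.10 and -0.72. Outside the cell cycle list, the cell division genes Ndc80, Nuf2, Aspm and Shcbp1, chosen after their values were seen, were called higher. They rose by 1.37, 1.12, 1.09 and 1.16 on the log2 scale. The groups lay apart for Ndc80 (means of 2.96 CPM in SCI Tam against 1.16 CPM in SCI Veh) and overlapped for the others.

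The other lists had few changed members. In 22 of 26 cases where 1 to 3 members of a list were called in a direction, leaving out 1 library moved that count by over 1.5 times. Of 19 chemokines 2 were lower (Ccl21a and Ccl11; median -0.54), of 15 genes of border macrophages and alternative activation 1 was higher (Arg1; median -0.22), and of 7 lymphocyte, neutrophil and mast cell genes 1 was lower, Csf3r, a receptor of neutrophils and microglia (24.1 to 42.5 CPM against 51.6 to 74.8 CPM, log2 -0.85, adjusted p = 0.0083). Arg1, arginase, had 0.72, 7.55, 23.1 and 8.45 CPM against 2.14, 1.36, 3.21 and 0.78 CPM, with library 452 below every vehicle library and the other 3 above, and the change of 2.43 (1.60 without library 549) no longer passed when any of 402, 428, 457, 513, 549 or 564 was left out (adjusted p at most 0.0941). Of 11 Schwann cell and nerve root genes 2 were lower (Scn7a and Egr2; median -0.88), and of 13 motor neuron and cholinergic genes 1 (Mmp9; median 0.15). Of 14 cilia, 14 neurotrophic and 5 blood genes 0 passed by edgeR, DESeq2 or limma-voom, with 2, 4 and 0 at an unadjusted p under 0.05.

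Markers of tissue beside the cord were also lower in SCI Tam. Of 17 skeletal muscle genes 6 were lower (10 without library 428 and 3 without 402, 457, 513, 549 or 564; median -4.32). Against library 428 alone the median was 0.03 and with the muscle term 0.37. The muscle score is the mean log2 level of this same list, and library 428 was kept for its score under 2. These 2 medians were therefore set by construction and are no separate evidence. Myoglobin (Mb) stood at 0.52 to 1.29 CPM in SCI Tam against 23.2, 1.48, 19.3 and 53.9 CPM. Of 19 bone, cartilage, tendon and fat genes 10 were lower (5 or 6 without library 402, 457, 513 or 564; median -2.41; -0.19 against library 428 alone), with summed levels of 198 to 264 CPM in SCI Tam and 292 to 486 CPM in SCI Veh. The cartilage protein Comp had 0.69 to 1.92 CPM against 23.8, 2.47, 7.81 and 20.1 CPM. With libraries 402, 429 and 457 left out, 0 genes passed in either direction by edgeR (886 lower and 1100 higher at an unadjusted p under 0.05), in a fit where library 428 alone stands for the vehicle group. What part the muscle, bone and fat transcripts have in the stromal falls beyond these values was not tested.

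**Figure D5:**
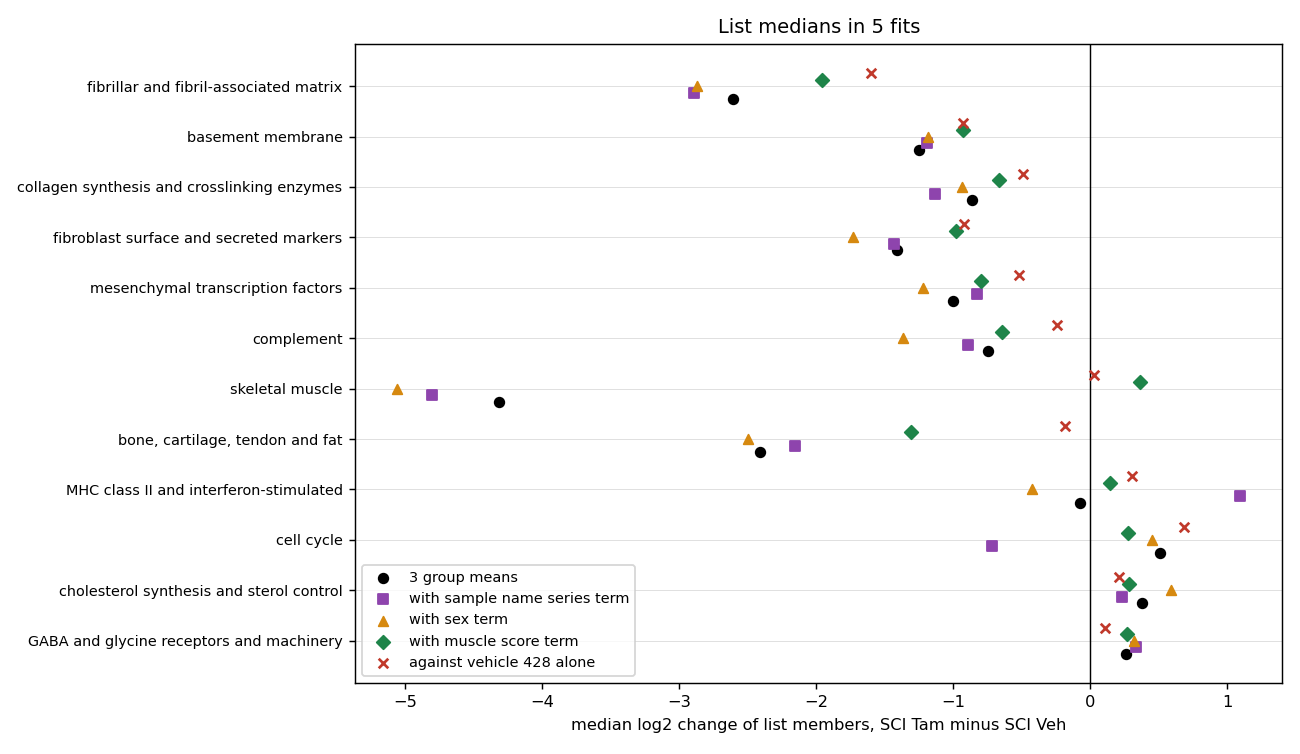
Median log2 change (SCI Tam minus SCI Veh) of the tested members of 12 lists in 5 fits, of group means (black), with a term for the sample name series (purple), sex (orange) or muscle score (green), and against vehicle library 428 alone (red crosses). The fibrillar matrix median lies between -2.89 and -1.60 in all 5, the skeletal muscle median moves from -4.32 to 0.03 against library 428 alone, and the MHC class II and cell cycle medians change sign with the series term. The muscle score is made from the skeletal muscle list and library 428 was kept for its low score, so the moves of that list's median were built in.

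The reference levels in uninjured cord differed among the lists' leading genes, as given for those named. For Pdgfrb, Lamb1 and Lamc1 (89.7 CPM) the SCI Tam libraries stood near the uninjured average, for Egfr and Col4a1 (49.4 CPM) between it and SCI Veh, and for Pdyn, Insig1 and Gabra4 (18.9 CPM) nearer to it than SCI Veh was. No test of SCI Tam against uninjured cord was made here.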

How the data were processed

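RNA of 12 cords or lesions was sequenced on Illumina instruments after RNeasy extraction, per the labels' protocols. The submitters' processing notes name the build mm9 and the tools TopHat, Cufflinks, HTSeq and Picard, without their roles, and strandedness is not given. The authors deposited raw counts for 37991 Ensembl genes and a table of FPKM. FPKM served only to accept or refuse a change by the sign of the difference in log2(FPKM + 0.1), and genes without a usable FPKM value were refused.

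Counts were tested with edgeR 4.0.16 (filterByExpr, minimum count 10 and total 15; TMM; group means of all 12 libraries; quasi-likelihood, two-sided), adjusted by Benjamini-Hochberg over 16473 genes at 0.05. SE is the log2 change over the root of F. Levels are TMM-normalised CPM. The fit was tested on simulated data. Stepped genes had a log2 CPM to FPKM ratio that differed by over 0.5 between libraries 513, 549 and 564 and the other 9 without overlap, at 200 counts or more (497 of 15259). The muscle score of a library is the mean log2(CPM + 0.1) of the 18 skeletal muscle genes in the count table. Libraries with a muscle score above 2 were called high in muscle.

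The comparison, members, 47 lists, the rule for named genes and the alternatives were chosen with earlier results of these data known. Named are the 15 largest falls and rises of non-overlapping groups with a mean of at least 5 CPM and no step, up to 6 members per list and direction by p, the 10 of smallest p with the series and with the sex term, and 17 fixed genes (predicted and sex-linked genes may stay unnamed); other list members are given by log2 change alone. Reads carry no molecular identifiers. The labels do not say how libraries map to litters or surgery days, so p-values measure the spread between libraries. Promoters are RefSeq GRCm38.p6, used without mm9 coordinates. Alternatives were DESeq2 1.42.0 size factors and Wald test, library totals, other filters, limma 3.58.1 (voom; FPKM), the 8 libraries alone, terms for sex, series and muscle, and each library left out. Some genes that the rule names are left out of the text.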

Additional observations from a re-analysis of the deposited data

Results flagged for a closer look

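In 21 of 376 pairs of a named gene and a lesion group, 1 library lay far from the 3 others of its group by Dixon's criterion (at its 95% level), where chance gives about 1 in 20. Of these, 15 were in SCI Tam and 6 in SCI Veh, 9 were in library 452 and 5 in library 564.

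Library 452 was high for 3 class II genes, with Cd74 at 184 CPM (the other SCI Tam libraries were at 11.3 to 28), H2-Aa at 63.6 (5.33 to 13.4) and H2-Ab1 at 64.6 (5.51 to 12.4), and for Prelp at 76.6 (56.7 to 59.9). Its Ccl21a value of 0.12 CPM rests on 1 count, against 0 in the 3 others. It was low for Col18a1 at 28.9 (38.3 to 39.9), Des at 5.51 (7.16 to 7.28), Etv1 at 56.9 (76.0 to 76.6) and Rab5a at 131 (190 to 197). Library 564 was high for Col1a1 at 189 (101 to 114), Stard4 at 60.4 (47.1 to 48.1), C6 at 0.551 (0.12 to 0.186), Tnmd at 2.39 (1.08 to 1.21) and Dusp26 at 119 (86.1 to 91.6). Library 549 was at 27.5 for Matn2, where the others were at 26.4.

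In SCI Veh, Sfrp2 was at 53.1 CPM in library 457 (6.95 to 14.0 in the others) and Gap43 at 132 there (148 to 151). Aqp4 was at 1705 in library 429 (1127 to 1191) and Gabrg1 at 63.8 there (47.5 to 49.9). Stmn2 was at 320 in library 428 (304 to 307), and Mmp9 at 23.8 in library 402 (10.7 to 12.1).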

How the results depend on the processing

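The 1361 lower and 1184 higher genes became 755 and 665 by limma on log2(FPKM + 0.1), 821 and 678 with 1 added, 616 and 534 where FPKM also had to pass, 858 and 595 in a fit of the 8 libraries, 582 and 379 with the sex term, 40 and 17 with the series term, 61 and 10 with the muscle term, 0 and 0 by edgeR without the 3 vehicle libraries high in muscle transcripts (886 and 1100 at an unadjusted p under 0.05), and 372 and 192 at 2-fold. With sex and series terms together, an alternative chosen after seeing the data, they were 26 and 12. Leaving out 1 library gave 617 (without 513) to 2256 (without 452) lower and 559 (without 513) to 2087 (without 452) higher. Normalisation, filters, DESeq2 and voom kept both counts within 1.5 times. Of 170 named genes called, 128 kept the call whichever library was left out, 23 with the series term, 120 with the sex term and 42 with the muscle term. Signs turned for Kcnj10 (-0.0119 with the series term, -0.0860 with both terms), Arg1 (-1.36 and -1.87) and, without the vehicle libraries high in muscle, Des (0.0222), Cfd (0.43) and Tnmd (0.25); the cause was not tested. No paired analysis was possible because the groups share no replicate numbers. Counts near 0 limit Ccl21a and Mmrn1 to a statement of their levels.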
